A study of Homo sapiens with 8 samples.

Results

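ZNF574 is a protein-coding gene on human chromosome 19 whose product belongs to the C2H2 zinc finger proteins and is named in the title of the series. Its sgRNAs were chosen by name, as every sgRNA listed under the symbol ZNF574. The table listed 20 of them among 209070 sgRNAs of 18905 genes and the control sgRNAs. They formed a P1 set of 10 and a P2 set of 10, directed at 2 promoters as the sgRNA names give them. In each set 5 sgRNAs had counts, and the other 5 had a count of 0 in all 8 libraries, as did 103686 sgRNAs of the table. The gene was picked from the screen with its own values known, because its P1 set differed more between the lines than that of any other gene. Its values are therefore a description, and no p-value is given for it.

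The counts came from genomic DNA of K562 cells, a human leukemia line, in which dCas9-KRAB, a Cas9 that no longer cuts joined to the KRAB repressor domain, is directed to promoters by sgRNAs. All groups carried dCas9-KRAB and the genome-wide sgRNA library and had been selected in puromycin. The groups were mutant uL16 at day 9, mutant uL16 at day 0, wild-type uL16 at day 9 and wild-type uL16 at day 0, with 2 libraries each. The uL16 proteins were stably expressed. The labels name neither the mutation nor the promoter that drives it, and do not say what the cells make from their own RPL10 gene. Day 9 is the label of the end of the screen, which the design text places after 10 cell doublings. Whether a line is 1 clone and whether the 2 replicates were separate cultures is not stated, so the spread between replicates may be technical. Total counts ranged from 39233340 to 143585751 per library. Replicates of a group were not copies of each other, since counts of the control sgRNAs differed between them by 12.4 to 20.9 times the variance of counting alone.

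uL16, encoded by RPL10, is among the last proteins to join the large (60S) ribosomal subunit. The subunit leaves the nucleus with the adaptor NMD3 and completes its maturation in the cytoplasm, where uL16 is loaded, the GTPase LSG1 releases NMD3, and SBDS with EFTUD1 (also named EFL1) releases eIF6. In a CRISPRi growth screen, an sgRNA that lowers a gene needed for growth becomes rarer among the cells over time. Less growth and more death of the cells that carry an sgRNA give the same loss of counts and cannot be told apart. The amount of ZNF574 RNA or protein left in the cells was not measured in these libraries.

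RefSeq gives ZNF574 at chromosome 19, 42068477 to 42081552 of GRCh38.p14, on the plus strand, with 2 transcription starts 7689 bp apart. The 250 bases before each start are shown as promoter sequence and not as the target sites of the sgRNAs. Capitals mark the pentamer CCAAT, searched on both strands, so that on the strand shown it may also read ATTGG.
Upstream of the first start, chr19:42068227-42068476, plus strand: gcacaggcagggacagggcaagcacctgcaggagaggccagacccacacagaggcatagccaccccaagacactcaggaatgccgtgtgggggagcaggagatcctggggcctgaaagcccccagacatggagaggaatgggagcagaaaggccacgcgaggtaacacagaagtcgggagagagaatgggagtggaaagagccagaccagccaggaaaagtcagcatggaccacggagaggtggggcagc
Upstream of the second start, chr19:42075916-42076165, plus strand: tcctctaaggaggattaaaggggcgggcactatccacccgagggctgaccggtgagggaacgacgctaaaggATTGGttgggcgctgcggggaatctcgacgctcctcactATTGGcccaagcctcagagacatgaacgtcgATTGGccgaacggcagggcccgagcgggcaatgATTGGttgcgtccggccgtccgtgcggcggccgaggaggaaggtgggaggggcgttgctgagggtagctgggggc
The sequence before the second start held 4 such pentamers, 23 CpG dinucleotides and 64.4% G and C. The sequence before the first start held no CCAAT in these letters, 5 CpG dinucleotides and 61.2% G and C. Over 35116 RefSeq promoter sequences of the same length, 32.0% held at least 1 CCAAT, 0.874% held 4 or more, and the median was 11 CpG dinucleotides. The cutoff of 4 is the number found before the second start, so that share is a description and no test. The positions in the sgRNA names lie 498.8 kb or more beyond the end of the gene in GRCh38.p14, and therefore follow a different build. The sets were not placed on these sequences. The 2 starts lie 7689 bp apart, while the medians of the counted P1 and P2 positions lie 3367 bp apart. The P1 and P2 sets are therefore not to be read as 1 set at each of these starts.

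Within the sgRNA names, distances can be read. The 5 counted P1 sgRNAs spanned 234 bp and all lay on the minus strand. Numbered along the chromosome, P1-2, P1-3 and P1-4 lay 7, 13 and 28 bp from P1-1, and P1-5 lay 234 bp from it. The first 4 therefore read nearly the same place, and they are not independent targets. The 5 counted P2 sgRNAs spanned 389 bp and began 2810 bp after the last counted P1 sgRNA. P2-2, P2-3, P2-4 and P2-5 lay 3, 336, 375 and 389 bp from P2-1. No sgRNA of another gene had the same position and strand, and the nearest one on the chromosome belonged to GRIK5, 33.35 kb away.

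Summed over the P1 set, ZNF574 sgRNAs were nearly equal in both lines at day 0 and far rarer in mutant than in wild-type cells at day 9. Levels are given in CPM, the count divided by the total of its library and multiplied by the same constant in all libraries (counts-per-million). In mutant cells the P1 sum was 6.96 and 7.08 CPM in the day 9 libraries, against 37.0 and 36.0 CPM in the day 0 libraries. In wild-type cells it was 31.7 and 25.1 CPM in the day 9 libraries, against 36.1 and 36.3 CPM in the day 0 libraries. Both mutant day 9 libraries lay below every other library, and both wild-type day 9 libraries lay below both day 0 libraries of either line. The group means were 7.02 ± 0.0855 CPM (SD, n = 2) for mutant day 9, 36.5 ± 0.699 for mutant day 0, 28.4 ± 4.64 for wild-type day 9 and 36.2 ± 0.171 for wild-type day 0. From low to high the order was mutant day 9, wild-type day 9, wild-type day 0 and mutant day 0, and the last pair overlapped. At day 9, 19.2% of the day 0 level was left in mutant cells and 78.5% in wild-type cells.

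**Figure D1:**
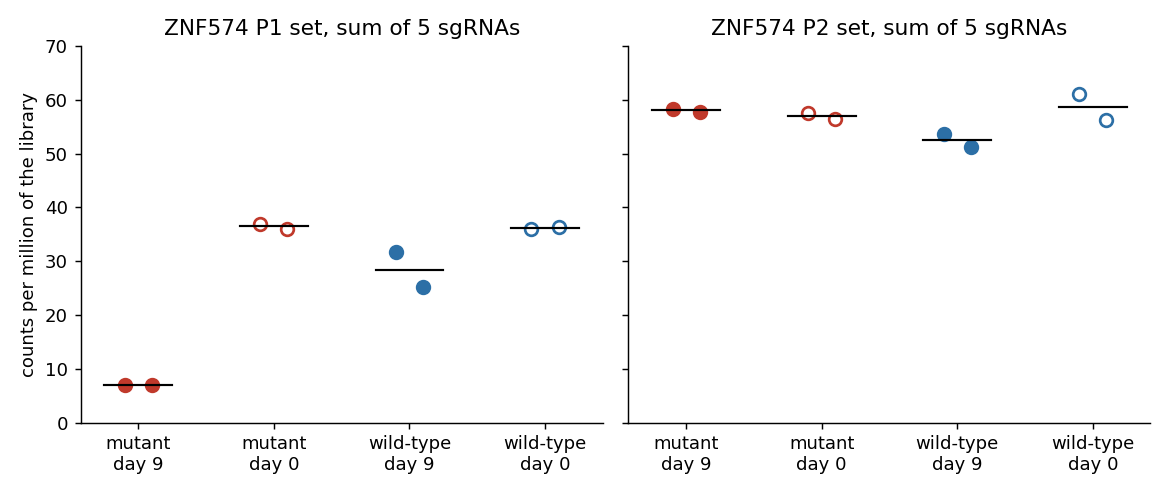
Summed level of the ZNF574 P1 set (left) and P2 set (right) in CPM, with 1 point per library, red for mutant and blue for wild-type uL16, filled at day 9 and open at day 0, and the group mean as a line. The P1 points of mutant day 9 sit at 6.96 and 7.08 CPM and those of the other groups between 25.1 and 37.0 CPM, while all P2 points lie between 51.3 and 61.0 CPM.

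As fitted with edgeR over 18903 genes, the P1 sum of ZNF574 had a log2 change from day 0 to day 9 of -2.40 (SE 0.15) in mutant cells and -0.37 (SE 0.14) in wild-type cells. Subtracting wild-type from mutant left a difference of -2.03 (SE 0.20, 95% interval -2.43 to -1.62), or 4.08-fold. It was the lowest of the 18903 genes, which is what chose the gene. The next lowest genes were NUPL1, a nuclear pore protein, with a difference of -1.72 (SE 0.42), and SMU1, a splicing factor, with -1.53 (SE 0.93). In both of these genes the wild-type change was large too, -2.08 for NUPL1 and -2.43 for SMU1, beside mutant changes of -3.80 and -3.96. In mutant cells alone ZNF574 ranked 110 from the lowest, and in wild-type cells 1608. At day 9 mutant minus wild-type was -2.02 (SE 0.15), and at day 0 it was 0.01 (SE 0.13).

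The wild-type change depended on which day 9 library was used. It was -0.54 on the log2 scale without wild-type day 9 replicate 1 and -0.21 without wild-type day 9 replicate 2. The 95% interval of the fit was wider, from -0.65 to -0.09, and the single P1 sgRNAs ranged from -1.70 to 0.12. The size of the loss in wild-type cells is therefore poorly known. The mutant change stayed between -2.42 and -2.38 when each of the 8 libraries was left out in turn, and the difference between -2.18 and -1.85.

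The 5 P1 sgRNAs all became rarer in mutant cells, by different amounts. P1-3 had 0.459 and 0.721 CPM in mutant day 9 libraries, against 5.70 and 7.92 CPM in mutant day 0 libraries. It had 4.96 and 3.68 CPM in wild-type day 9 libraries, against 7.24 and 5.96 CPM in wild-type day 0 libraries. Its difference of changes, -2.87 (SE 0.50), was the lowest of the 5, with 8.66% of its day 0 level left in mutant cells and 65.5% in wild-type cells. P1-4 had 1.45 and 1.13 CPM in mutant day 9 libraries, against 9.14 and 8.14 CPM in mutant day 0 libraries. In wild-type cells P1-4 had 6.72 and 4.97 CPM at day 9, against 6.90 and 6.51 CPM at day 0, and these overlapped. P1-4 thus had a large loss in mutant cells with 14.9% left, while 87.1% was left in wild-type cells.

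P1-1 differed from the others in that it was also strongly reduced in wild-type cells. It had 0.382 and 0.516 CPM in mutant day 9 libraries, against 3.79 and 4.51 CPM in mutant day 0 libraries. It had 0.697 and 2.03 CPM in wild-type day 9 libraries, against 4.23 and 4.60 CPM in wild-type day 0 libraries. The 2 wild-type day 9 libraries stood far apart for this sgRNA, and its difference of changes, -1.49 (SE 0.68), had the largest error of the 5. Its mutant day 9 replicate 1 count of 15 was the lowest of any counted ZNF574 sgRNA in any library, with an exact 95% Poisson interval of 8.40 to 24.7 that covers counting error only, since no molecular identifiers were counted and PCR copies are not independent.

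P1-2 had 1.30 and 1.89 CPM in mutant day 9 libraries, against 9.75 and 7.09 CPM in mutant day 0 libraries. In wild-type cells it had 7.12 and 5.21 CPM at day 9, against 9.54 and 7.69 CPM at day 0. P1-2 had a log2 change of -2.38 (SE 0.31) in mutant and -0.49 (SE 0.29) in wild-type cells, a smaller mutant loss than those of P1-1, P1-3 and P1-4. P1-5, the sgRNA that lies apart from the other 4, had 3.36 and 2.82 CPM in mutant day 9 libraries, against 8.60 and 8.32 CPM in mutant day 0 libraries. In wild-type cells it had 12.2 and 9.23 CPM at day 9, against 8.15 and 11.5 CPM at day 0. It kept 36.6% of its day 0 level in mutant cells, the most of the 5, and 108.9% in wild-type cells, where its libraries overlapped. Since it had little change in wild-type cells, its difference of changes of -1.58 (SE 0.36) was close to that of P1-1, whose changes in both lines were lower.

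**Figure D2:**
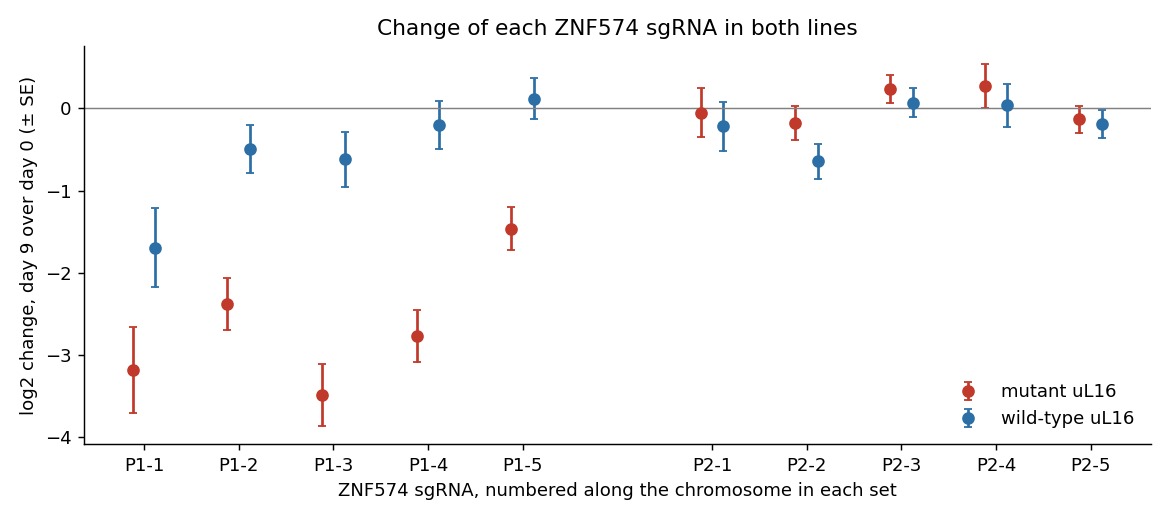
Fitted log2 change from day 0 to day 9 of each counted ZNF574 sgRNA in mutant (red) and wild-type (blue) uL16 cells, with bars of 1 SE from 2 libraries per group. Each P1 sgRNA lies lower in mutant than in wild-type cells, from -3.49 to -1.47 against -1.70 to 0.12, while the P2 sgRNAs stay between -0.64 and 0.27 in both lines.

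Counted without a model, all 5 P1 sgRNAs had both mutant day 9 libraries below both mutant day 0 libraries, a pattern that 20.8% of 102987 targeting sgRNAs showed. All 5 also had both mutant day 9 libraries below both wild-type day 9 libraries, against 17.5% of targeting sgRNAs. In wild-type cells 3 of 5 had both day 9 libraries below both day 0 libraries, against 20.6%. At day 0 no P1 sgRNA had both mutant libraries below both wild-type libraries, against 17.0% of targeting sgRNAs, and 1, P1-4, had both above, against 17.6%. Since these contrasts chose the gene and the first 4 sgRNAs lie within 28 bp, nothing is read from these counts beyond the agreement of direction among sgRNAs.

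The non-targeting control sgRNAs show how far single sgRNAs moved without a target. Over 1894 of them the difference of log2 changes had a median of 0.00, an SD of 0.46 and a central 95% range of -0.87 to 0.90. All 5 ZNF574 P1 sgRNAs lay below that range. Since the sum of these 5 in the same contrast chose the gene, their place is a description and no test. From 2 to 6 of the 1894 control sgRNAs had a lower difference than each P1 sgRNA, and the lowest control sgRNA reached -4.21. A single sgRNA as low as those of ZNF574 was thus rare but present among sequences with no target.

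**Figure D3:**
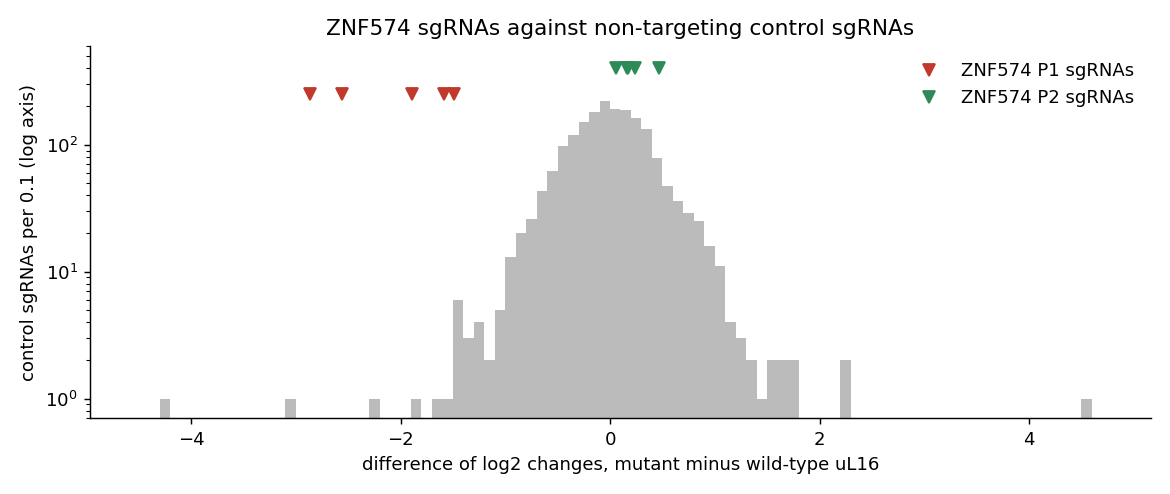
Number of non-targeting control sgRNAs (grey, log axis) by their difference of log2 changes, mutant minus wild-type uL16, in steps of 0.1, with the counted ZNF574 sgRNAs as triangles (red P1, green P2) whose height has no meaning. The P1 sgRNAs lie from -2.87 to -1.49, outside the central range of the control sgRNAs, and the P2 sgRNAs from 0.06 to 0.47 lie inside it. The P1 values of this contrast chose the gene.

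The P2 sgRNAs of ZNF574 had no such loss. Their sum was 58.2 and 57.8 CPM in mutant day 9 libraries, against 57.6 and 56.4 CPM in mutant day 0 libraries. In wild-type cells it was 53.6 and 51.3 CPM at day 9, against 61.0 and 56.3 CPM at day 0. The mutant libraries of both days stood close together, and the wild-type day 9 libraries were the lowest of the 8. The group means were 58.0 ± 0.317 CPM (SD, n = 2) for mutant day 9, 57.0 ± 0.831 for mutant day 0, 52.5 ± 1.65 for wild-type day 9 and 58.6 ± 3.38 for wild-type day 0. Wild-type day 9 lay below all other libraries, and mutant day 0 lay just below mutant day 9 without overlap. Wild-type day 0 overlapped both mutant groups, and the means of these 3 groups differed by less than its SD.

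In the fit over the 1395 genes with a P2 set, the log2 change of the ZNF574 P2 sum was -0.02 (SE 0.09, 95% interval -0.21 to 0.16) in mutant cells and -0.21 (SE 0.09, 95% interval -0.40 to -0.03) in wild-type cells. The difference was 0.19 (SE 0.13, 95% interval -0.07 to 0.45), opposite in sign to that of P1 and ranked 160 from the top among the 1395 genes. Of all P2 sets, edgeR called 0.789% in mutant cells and 1.22% in wild-type cells at an adjusted p of 0.05, all lower. The P1 value of -2.40 in mutant cells came from a separate fit, and no test of P1 against P2 is given. P2-2 had the largest shift of the 5 P2 sgRNAs, and it was in wild-type cells, with a log2 change of -0.64 (SE 0.21). It had 8.21 and 6.74 CPM in wild-type day 9 libraries, against 11.7 and 11.6 CPM in wild-type day 0 libraries, and 10.4 and 10.1 CPM in mutant day 9 libraries, against 10.9 and 12.2 CPM in mutant day 0 libraries. P2-1, which lies 3 bp from P2-2, had a log2 change of -0.22 (SE 0.30) in wild-type cells. The other 3 P2 sgRNAs ranged from -0.19 to 0.07 in wild-type cells. In mutant cells the 5 ranged from -0.18 to 0.27, with 3 below 0. Counted without a model, in mutant cells 1 P2 sgRNA had both day 9 libraries below both day 0 libraries and 2 had both above, against 20.8% and 21.2% of targeting sgRNAs. In wild-type cells 1 was below and none above, against 20.6% and 20.3%. With 5 sgRNAs, nothing is read from these counts.

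The ratio of the P1 to the P2 sum compares both sets within 1 library and does not depend on library scaling. As log2 (P1/P2) it was -3.07 and -3.03 in mutant day 9 libraries, against -0.64 and -0.65 in mutant day 0 libraries. It was -0.76 and -1.03 in wild-type day 9 libraries, against -0.76 and -0.63 in wild-type day 0 libraries. The mutant day 9 libraries stood apart from the other 6, among which wild-type day 9 overlapped wild-type day 0 at about -0.76. Mutant day 9 was lower than mutant day 0 by a difference of -2.40 and lower than wild-type day 9 by a difference of -2.15. Over both lines, the 4 day 9 libraries differed from the 4 day 0 libraries by -1.30, a mean over lines that differ.

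Other genes also had a P1 set with a large change beside a P2 set with almost none. Of 1393 genes with both sets, 39 had a P1 change under -1 on the log2 scale in mutant cells, ZNF574 among them. In all 39 the P2 change in mutant cells lay within 0.25 of 0, with a median of 0.03. Since 1328 of the 1393 genes lay in that window, most P2 sets had little change whatever their P1 set did. In the 9 genes with a P1 change under -2, the P2 changes ranged from -0.11 in NCL, which encodes nucleolin, to 0.22 in SF3A2, a splicing factor. SEC61A1, the main subunit of the protein-conducting channel of the endoplasmic reticulum, had a P1 change of -4.45 (SE 0.25) and a P2 change of 0.09 (SE 0.09). Within these 9 ZNF574 had the wild-type P1 change nearest 0, at -0.37, and the other 8 ranged from -3.49 to -1.22. No test was made of this contrast, because the choice of the gene used it. The 3 genes with the lowest P2 difference between the lines were FOXO3, a forkhead transcription factor, at -0.53 (SE 0.18), TPM4, a tropomyosin, at -0.52 (SE 0.18), and AHNAK, a scaffold protein, at -0.47 (SE 0.15). All 3 had an adjusted p of 0.85 with edgeR's quasi-likelihood test.

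**Figure D4:**
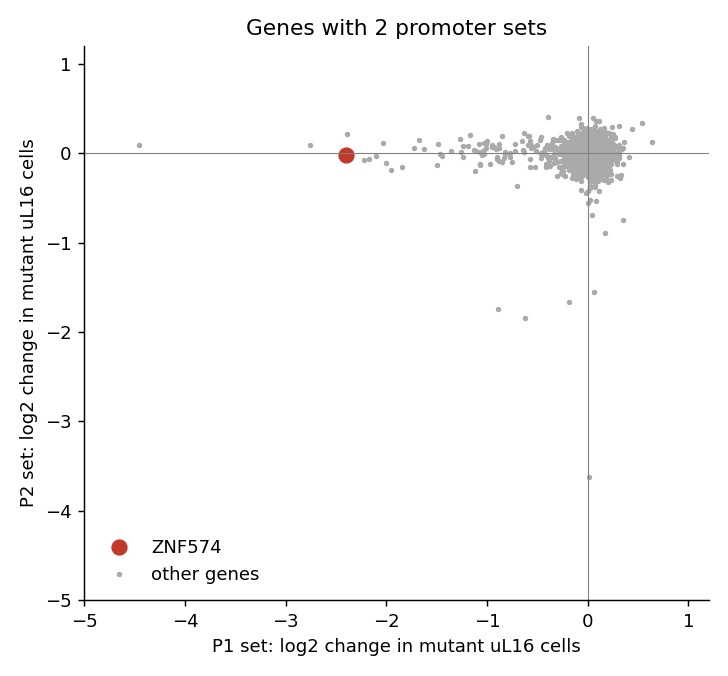
Log2 change from day 0 to day 9 in mutant uL16 cells of the P1 set (x axis) and of the P2 set (y axis) for 1393 genes with both sets (grey), with ZNF574 in red. ZNF574 lies at -2.40 and -0.02 among genes whose P1 sets fell while their P2 sets stayed near 0.

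The genes beside ZNF574 on chromosome 19 were looked at because dCas9-KRAB can also lower neighbouring promoters. Of the nearest protein-coding genes with a P1 set, values are given for RABAC1 and GRIK5 before it and for POU2F2, DEDD2 and ZNF526 after it. POU2F2, which encodes the B cell transcription factor Oct-2, is the nearest gene downstream and had a log2 change of -0.20 (SE 0.08) in mutant cells and 0.03 (SE 0.08) in wild-type cells. Its difference was -0.22 (SE 0.11, adjusted p = 0.89 with edgeR). GRIK5, a subunit of kainate-type glutamate receptors, is the nearest gene upstream and had -0.09 (SE 0.09) in mutant cells and -0.21 (SE 0.09) in wild-type cells. Over these 5 neighbours the changes lay between -0.20 and 0.16 in mutant cells and between -0.21 and 0.03 in wild-type cells. The lowest adjusted p of any of them was 0.16 in mutant cells, 0.17 in wild-type cells and 0.89 for the difference. None of the 5 had a change near the -2.40 of ZNF574 in mutant cells. These values come from the sgRNAs of the neighbours themselves. Whether the ZNF574 sgRNAs lowered any of these genes was not tested.

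The cytoplasmic steps of 60S maturation were followed with 16 genes, each called singly with edgeR at an adjusted p of 0.05 over all 18903 genes. The list was chosen with earlier results of these data known. The shares of all genes called are therefore given for scale and are no test of the list. In mutant cells 11 of the 16 fell and none rose, against 8.53% and 0.704% of all genes (9.23% in either direction), with a median log2 change of -0.87 where all genes had 0.01. In wild-type cells 7 of the 16 fell and none rose, against 8.7% and 0.868% of all genes (9.56% in either direction), with a median of -0.26 where all genes had 0.01. The difference between the lines was called lower for 2 of the 16, ZNF622 and RPL10, against 0.0159% of all genes. That share is 3 genes, namely these 2 and ZNF574, for which that call is no test. It is thus no separate background for the 2.

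At the step of uL16 loading, RPL10, which encodes uL16, had a log2 change of -1.27 (SE 0.16) in mutant cells and -0.09 (SE 0.15) in wild-type cells, a difference of -1.17 (SE 0.22, edgeR adjusted p = 0.0396). The value was -0.45 without the most abundant of its sgRNAs, and its call was lost there, with limma on the mean of its sgRNAs, and in 6 of 8 fits that left out 1 library. LSG1 fell by 1.57 (SE 0.15) in mutant cells and by 0.52 (SE 0.15) in wild-type cells. NMD3 fell by 1.13 (SE 0.13) in mutant cells and had -0.26 (SE 0.13) in wild-type cells. Their differences, -1.04 (SE 0.21) and -0.87 (SE 0.19), did not pass the threshold (edgeR adjusted p = 0.0787 and 0.125), though DESeq2 called both. Beside these, ZNF574 had -2.40 in mutant and -0.37 in wild-type cells, values given without a test.

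ZNF622, which binds late 60S particles near the tunnel exit, fell by 1.17 (SE 0.11) in mutant cells and had -0.20 (SE 0.11) in wild-type cells. Its difference of -0.97 (SE 0.15) passed the threshold (edgeR adjusted p = 0.00378), and the call was lost without wild-type day 0 replicate 1 (adjusted p = 0.289). Over the alternatives tried, its adjusted p ranged from 2.86e-08 to 0.289, and that of RPL10 from 4.22e-05 to 0.937. DNAJC21, a J-domain protein whose yeast relative acts with that of ZNF622 on late 60S particles, fell by 0.66 (SE 0.11) in mutant cells, with a difference of -0.51 (SE 0.15, adjusted p = 0.717). Some other genes of the list fell in both lines. EIF6, the factor that keeps the subunits apart, fell by 1.38 (SE 0.13) in mutant and by 1.14 (SE 0.13) in wild-type cells, and CINP, a partner of the SPATA5L1 ATPase in 60S maturation, fell by 1.31 (SE 0.10) in mutant and fell by 1.19 (SE 0.10) in wild-type cells. The differences of EIF6 and CINP were -0.24 (SE 0.19) and -0.12 (SE 0.14), and neither passed the threshold (edgeR adjusted p = 0.933 and 0.961). SPATA5L1 itself had log2 changes of -0.71 (SE 0.13) in mutant and -0.80 (SE 0.13) in wild-type cells. SPATA5 had -0.07 and -0.10, and C1orf109 0.11 and -0.06, in mutant and wild-type cells, and neither gene passed the threshold in either line. SBDS had -0.12 (SE 0.11) in mutant and -0.01 (SE 0.11) in wild-type cells, and neither passed the threshold.

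**Figure D5:**
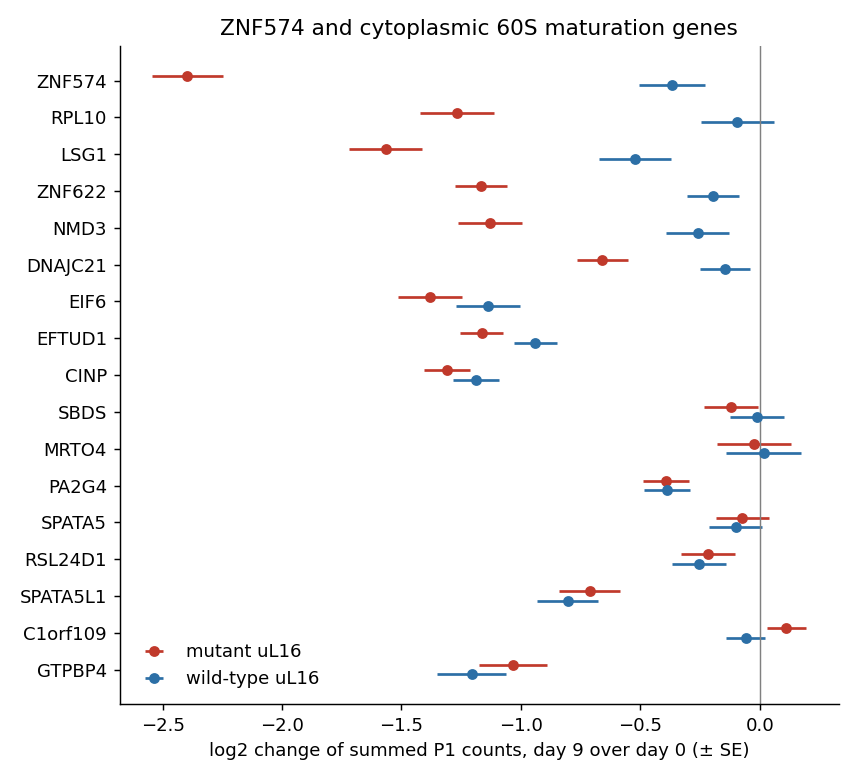
Log2 change from day 0 to day 9 of summed P1 counts in mutant (red, upper) and wild-type (blue, lower) uL16 cells, with bars of 1 SE, for ZNF574 and 16 genes of cytoplasmic 60S maturation sorted by the difference of the lines. ZNF574 lies at -2.40 and -0.37, and EIF6, EFTUD1, CINP and GTPBP4 are among the genes that fell in both lines.

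The factors that act on stalled or obstructed 60S subunits were followed with 12 genes, a list also chosen with earlier results of these data known. In mutant cells 4 of them fell, NEMF, LTN1, PELO and HBS1L, against 8.53% of all genes. In wild-type cells the same 4 fell, against 8.7% of all genes, and 1 rose, against 0.868%. The gene that rose was GTPBP2, a GTPase of ribosome rescue, by 0.36 (SE 0.10). Its call was lost with limma on the mean of sgRNAs and did not hold without some single libraries. The median log2 change was -0.10 in mutant and -0.12 in wild-type cells, where all genes had 0.01 in each. NEMF, which marks obstructed 60S subunits and recruits the ubiquitin ligase LTN1, fell by 1.45 (SE 0.16) in mutant and by 0.60 (SE 0.15) in wild-type cells. Its difference of -0.84 (SE 0.22) had an adjusted p of 0.502 with edgeR. LTN1 had a difference of -0.50 (SE 0.21, adjusted p = 0.883) and GTPBP2 one of -0.28 (SE 0.14, adjusted p = 0.895). In the difference between lines 0 of 12 genes passed the threshold with edgeR, against 0.0159% of all genes. DESeq2, which called 47 genes in all, also called 0 of the 12. An unadjusted edgeR p under 0.05 was found for 2 of them, and without the share of all genes nothing is read from that. NEMF was called in the difference without mutant day 9 replicate 1 (-1.12) and without wild-type day 9 replicate 1 (-1.03).

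Likeness to ZNF574 was measured over the 8 libraries on the centred log2 CPM of the P1 sums, for 18902 other genes. By the root mean square difference, the 5 nearest genes were MED11, MEMO1, DPY30, RBM17 and CKAP5, at 0.460 to 0.486, where a gene with no change at all would be at 0.994. MEMO1 and DPY30 share all 5 of their sgRNA positions and cannot be told apart. MED11, a subunit of Mediator, had log2 changes of -2.33 (SE 0.20) in mutant and -1.28 (SE 0.19) in wild-type cells. Over the 5 nearest genes the mutant changes ranged from -2.33 to -1.46 and the wild-type changes from -1.28 to -0.71, all lower than the -0.37 of ZNF574 in wild-type cells. By Pearson correlation, given as a description over 8 libraries that share normalization, the 5 highest were AEN, NEUROD4, ZNF622, NCR1 and SSB, from 0.981 to 0.968. AEN, an exonuclease, had a log2 change of only -0.32 (SE 0.10) in mutant cells, so a high correlation here does not mean an effect of like size. Of these 5, ZNF622 had the lowest mutant change, -1.17, with a correlation of 0.980 and a root mean square difference of 0.537.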

How the data were processed

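The authors deposited 1 table of raw read counts per sgRNA, 1 column per library and not normalized. Per the file headers, bases 1 to 39 of each read were kept and counted in forward direction against a human CRISPRi version 2 library. Build hg38 is named in the submitters' processing notes, and no source used here names the counting program.

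Groups and replicate numbers came from the labels. An sgRNA was kept at a mean count of at least 20. Kept sgRNAs were summed per gene and promoter set (at least 3), giving 95977 sgRNAs of 18903 genes for P1, where genes without a P1 name enter with their only sets, and 7010 sgRNAs of 1395 genes for P2. Each table was fitted with edgeR 4.0.16 in R 4.3.3 (TMM, quasi-likelihood, 1 mean per group, all 8 libraries), with Benjamini-Hochberg adjustment over its genes. SE was the change divided by the root of the test statistic. Single sgRNAs were fitted likewise. The fit was also run on simulated counts with the same spread for all genes, and no outcome of that run is given here. Poisson intervals came from SciPy 1.17.1. A planned exact permutation test of the P1 to P2 ratio was run but is not given, since the P1 values chose the gene. The members and gene lists were chosen with earlier results of these data known. Named genes were ZNF574 and RPL10, list members called in the difference and the 3 others per list of smallest p, 3 neighbours per side (1 of which is not reported here), the 5 nearest by each likeness measure, and 3 genes of lowest P2 difference. Other genes (such as NUPL1, SMU1, NCL, SF3A2, SEC61A1, EIF6, CINP, SPATA5L1, SPATA5, C1orf109, SBDS, PELO and HBS1L) were named after their values were seen. DESeq2 1.42.0 and limma 3.58.1 (prior count 2) were alternatives.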

Additional observations from a re-analysis of the deposited data

Results flagged for a closer look

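The change from day 0 to day 9 differed between mutant and wild-type cells for ZNF622, at -0.97, and RPL10, at -1.17 on the log2 scale, mutant minus wild-type, by the test of that difference over all genes. ZNF574 had -2.03, the value that chose the gene, given as a description. Over 16 alternatives, the call held in 15 for ZNF622 and was lost without wild-type day 0 replicate 1. For RPL10 it held in only 8 of the 16. It was lost in most fits that left out 1 library, with limma, and without the most abundant sgRNA, where the value was -0.45.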

How the results depend on the processing

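The direction of the ZNF574 P1 values was kept in mutant cells, in wild-type cells, in their difference and at day 9 under all alternatives run. Without the most abundant sgRNA of each gene, P1 was -2.83 in mutant cells, -0.58 in wild-type cells, -2.25 for the difference and -2.16 for mutant minus wild-type at day 9, and P2 was 0.046 in mutant cells. With limma on the mean of sgRNAs, P1 was -2.64 in mutant and -0.61 in wild-type cells, and P2 at day 0 was -0.092 for mutant minus wild-type. With the median over sgRNAs, the P1 to P2 ratio differed by -2.60 (mutant day 9 against day 0), -2.65 (mutant against wild-type at day 9) and -1.13 (day 9 against day 0, both lines). The cause was not tested.

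Leaving out 1 library gave P1 from -2.42 to -2.38 in mutant cells, -0.54 to -0.21 in wild-type cells, -2.18 to -1.85 for the difference, -2.17 to -1.84 at day 9 and -0.01 to 0.03 at day 0. It gave P2 from -0.04 to -0.01 in mutant cells, -0.27 to -0.15 in wild-type cells, 0.13 to 0.24 for the difference, 0.11 to 0.18 at day 9 and -0.10 to 0.021 at day 0. The ratio differences ranged from -2.42 to -2.39, from -2.29 to -2.02 and from -1.70 to -0.94 in the order above.

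Of 18903 genes, 3 were called in the difference, 47 by DESeq2, 9 with a replicate block and 1 to 18 without 1 library, with 18 lacking wild-type day 9 replicate 1, 5 lacking either mutant day 9 replicate and 1 lacking wild-type day 0 replicate 1. In wild-type cells 1808 were called, 2763 by DESeq2 and 1299 to 1991 without 1 library, and in mutant cells 1745, with 1227 to 2029. The genes called higher varied most: in mutant cells 133, but 67 scaled to control sgRNAs, 441 by DESeq2 and 30 to 238 without 1 library, and in wild-type cells 164, but 84, 701 and 46 to 335. For P2 sets 11 were called in mutant cells, 17 without the most abundant sgRNA, 48 by limma and 6 to 17 without 1 library (6 and 7 lacking a mutant day 0 library, 17 lacking a wild-type day 9 library). In wild-type cells 17 were called, 33 by limma and 9 to 26 without 1 library (9 and 10 lacking a wild-type day 0 library, 26 lacking wild-type day 9 replicate 1). The cytoplasmic 60S list had 2 calls in the difference, 4 by DESeq2, 4 with the replicate block, 1 without the most abundant sgRNA, 1 by limma and 0 to 4 without 1 library, where 0 lacked wild-type day 0 replicate 1 and 4 lacked wild-type day 9 replicate 1. Its calls ranged from 10 to 11 in mutant and 5 to 8 in wild-type cells without 1 library. The 60S quality control list had 3 to 4, 3 to 5 and 0 to 1 calls in mutant cells, wild-type cells and the difference. With DESeq2 and the replicate block, LSG1 and NMD3 passed in the difference.

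Replicate numbers are shared across groups, but deviations of same-numbered libraries correlated by -0.01 to 0.05, so the numbers were not taken as pairs. With the replicate block within each line, the ZNF574 P1 difference was -2.02 and the P2 difference 0.19. The block across both lines, chosen after seeing the data, gave -2.01 for P1 at day 9. Each group has only 2 libraries, which limits the precision.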

Other observations

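Among 1393 genes with both sets, 5 had a P2 change under -1 in mutant cells, and they were named after their values were seen. CENPA, the centromeric histone H3 variant, had a P2 change of -3.62 in mutant cells and -3.88 in wild-type cells, while its P1 changes were 0.01 and 0.05. RCC1, the exchange factor of Ran, had P2 changes of -1.67 and -1.41 in mutant and wild-type cells, and CBFA2T3, a transcriptional corepressor, had -1.55 and -2.33. The remaining pair, PTCD1 and ATP5J2-PTCD1, carries 1 name within the other and had P2 changes of -1.74 and -1.85 in mutant cells. The P2 sets of these genes changed in both lines, whereas that of ZNF574 had -0.02 in mutant and -0.21 in wild-type cells.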
